A study of Chlorocebus aethiops with 12 samples.

Results

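Heat shock proteins and chaperones were followed through 34 human RefSeq accessions of 32 genes, given as a list of accessions. They cover the cytosolic and mitochondrial HSP90, HSP70, HSP110, HSP60, HSP10, small HSP and DNAJ families, the co-chaperones BAG3, CDC37, AHSA1, ST13 and STUB1, the stress enzyme HMOX1 and the heat shock factors HSF1 and HSF2. The array carried 32 of these accessions on 56 probes, and 31 accessions of 30 genes were bright enough to test, among 23757 accessions tested of 32379 on the array. NM_005346 (HSPA1B) and NM_199440 (a further HSPD1 accession) were on no probe of the array, and HSPA4L (NM_014278), an HSP110 relative, was not well above background on any of the 12 arrays and was not tested. All 31 tested members were well above background on all 12 arrays and none was saturated. The files give accessions without gene names, so the symbols used here are those under which RefSeq lists these accessions, given from general knowledge and not looked up in a table.

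Molecular chaperones bind proteins that are not fully folded and use cycles of ATP binding to help them fold, assemble or be degraded. HSP70 takes up clients delivered by DNAJ (HSP40) partners, HSP110 proteins recharge HSP70 with ATP, and HSP90 receives a subset of clients from HSP70. The glucocorticoid receptor (GR), a steroid-activated transcription factor, is such a client, and its hormone-free form is held by HSP90 and its co-chaperones. HSF1 is the main activator of heat shock genes under protein damage.

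RNA was measured in COS-1, a fibroblast-like, SV40-transformed kidney line of the African green monkey, with 3 samples labelled biological replicates in each of 4 groups. All cells were transfected with GR with the reagent FuGENE6, and 2 of the groups also with MDFIC, a protein named for its similarity to an inhibitor of the muscle regulator MyoD. From the day after transfection all were kept in medium with 10% charcoal-stripped serum, which is depleted of steroids, and 48 h after transfection they received vehicle or 100 nM dexamethasone (Dex), a synthetic glucocorticoid, for 6 h. The groups are called GR vehicle, GR Dex, GR+MDFIC vehicle and GR+MDFIC Dex. The comparisons asked how Dex changed the members in each cell type, and how MDFIC changed them without and with Dex. Since the GR is supplied by transfection, only part of the cells may carry it, and in bulk RNA fewer responding cells and less RNA per cell cannot be told apart.

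Probes on these arrays were built against human sequence, so a symbol names the human transcript and not the monkey sequence that bound. Levels are log2 signals minus the array's own 75th percentile, and they are set only against the same probe on other arrays. Per array, 70.3% to 75.2% of 43376 spots that are not controls exceeded background clearly. MDFIC (NM_199072) was 481-fold higher in GR+MDFIC than in GR cells in vehicle and 339-fold higher in Dex, and the GR targets TSC22D3, PER1 and FKBP5 rose with Dex in each cell type. Within GR+MDFIC cells MDFIC itself was called lower with Dex (-0.585, from a mean of 5.68 to 5.09), and the part of this in the results was not tested. NM_000176 (GR) was on no probe. VIM, FN1, CDH2, KRT8, KRT18, PAX8 and CDH1 were well above background on all 12 arrays and COL1A2 on 0; of markers of other cell types, PTPRC and PECAM1 were so on 0 arrays and the ALB probe on 12. Of the 7 kidney line markers tested, 1, PAX8, was called lower with Dex (-0.30 with GR alone and -0.28 with GR+MDFIC), and its part in the results was not tested. Slide 1 held the 3 GR vehicle arrays and GR Dex replicate 1, slide 2 held GR Dex replicates 2 and 3 and GR+MDFIC vehicle replicates 1 and 2, and slide 3 held GR+MDFIC vehicle replicate 3 and the 3 GR+MDFIC Dex arrays. Slide 3 was read on another scanner with a lower 75th percentile (a mean signal of 386 against 850 and 868 on slides 1 and 2).

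Dex lowered 4 chaperones in GR cells, led by HSPA1A, the stress-inducible cytosolic HSP70, and DNAJB1, its inducible HSP40 partner. They were 2.04-fold and 1.97-fold lower after 6 h of Dex. HSPH1, an HSP110, and HSPA8, the constitutive cytosolic HSP70, fell by less. These 4 of 31 members (12.9%) were called, all lower, against 7.17% of all tested accessions called and 2.77% called lower. A call here is a Benjamini-Hochberg adjusted p under 0.05 from limma over all 23757 accessions. The members' standard errors were smaller than most, with a median of 0.06 against 0.09 over all tested accessions, and the part of this in the count was not tested.

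HSPA1A (NM_005345) lay at 5.54, 5.69 and 5.53 on the 3 GR vehicle arrays and at 4.64, 4.59 and 4.44 on the 3 GR Dex arrays. Every Dex array was below every vehicle array by more than the spread within either group. The difference was -1.03 ± 0.08 (SE; 95% interval -1.21 to -0.85; adjusted p = 5.18e-05). All 3 HSPA1A probes were called lower, by between -1.20 and -0.93. HSPA1A and HSPA1B are near-identical copies, so these probes may read both transcripts.

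DNAJB1 (NM_006145), whose J domain stimulates the ATPase of HSP70, lay at 4.02, 3.88 and 3.90 in GR vehicle and at 2.90, 2.99 and 2.97 in GR Dex. The groups were apart by many times the spread of the replicates. The difference was -0.98 ± 0.06 (SE; 95% interval -1.10 to -0.85; adjusted p = 7.47e-06).

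HSPH1 (NM_006644), a nucleotide exchange factor of HSP70, lay at 4.87, 4.83 and 4.86 in GR vehicle and at 4.46, 4.41 and 4.54 in GR Dex. Vehicle arrays were tightly placed and all above the Dex arrays, with a difference of -0.38 ± 0.06 (adjusted p = 0.00541). HSPA8 (NM_006597) lay at 7.82, 7.70 and 7.74 in GR vehicle and at 7.46, 7.44 and 7.48 in GR Dex. Its Dex arrays were likewise all lower, with a difference of -0.30 ± 0.05 (adjusted p = 0.00968), and 2 of its 3 probes were called lower when every probe was tested on its own. The plot of levels by array shows these 4 members in all groups.

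**Figure D1:**
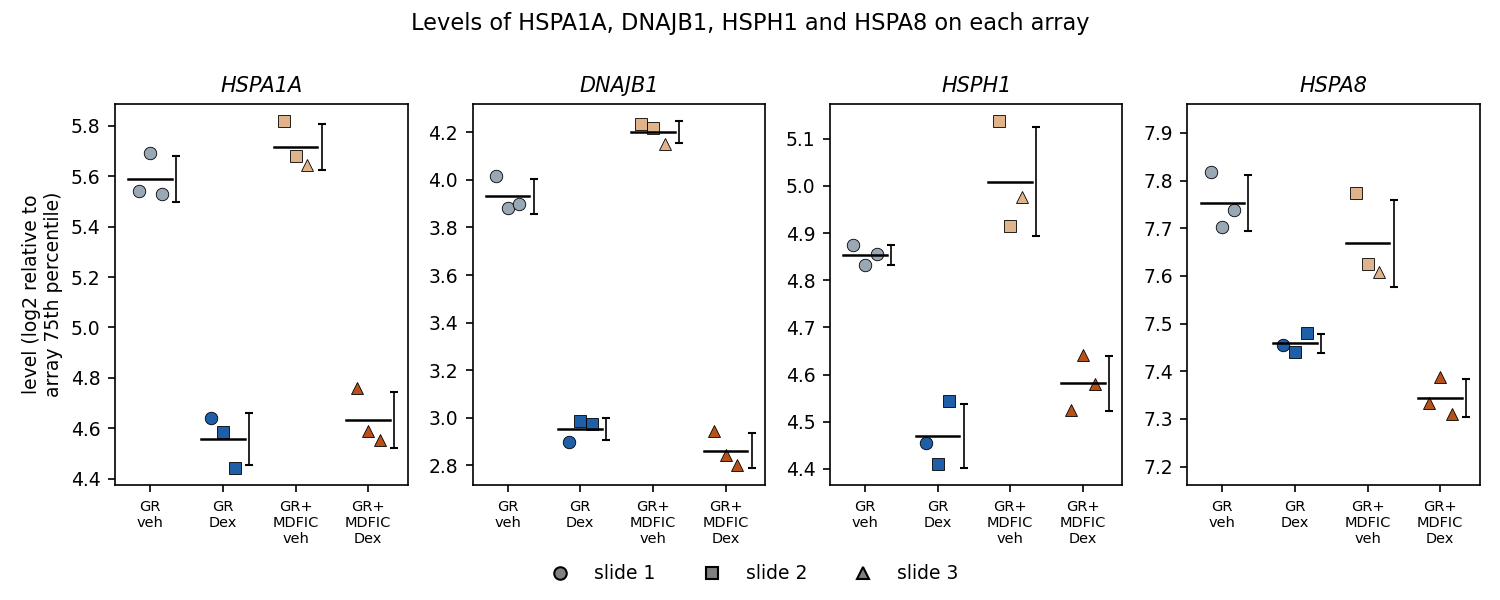
Level of HSPA1A, DNAJB1, HSPH1 and HSPA8 on each of the 12 arrays (y axis, log2 level minus the array's 75th percentile) by group, with slide as the marker shape, the group mean as a line and ± 1 SD (n = 3) as the bar beside it. In both cell types each Dex array lies below each vehicle array, by about 1 log2 unit for HSPA1A and DNAJB1 and by less for HSPH1 and HSPA8.

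Slide was partly tied to treatment. With slide as a fixed block, which for this comparison gives the difference within slide 1 (1 Dex against 3 vehicle arrays), HSPA1A differed by -0.94 (adjusted p = 0.0053) and DNAJB1 by -1.03 (adjusted p = 0.000647), so both stayed called. HSPH1 (-0.40, adjusted p = 0.0785) and HSPA8 (-0.30, adjusted p = 0.103) kept their size and lost the call, in a fit that called 3.56% of all accessions, 0.951% lower.

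None of the other members passed the test in GR cells. The median over the 31 members, called ones included, was -0.13, against 0.01 over all tested accessions, and 22 of 31 (71%) were below 0 against 47.9% of all. In 20 members (64.5%) the 3 Dex arrays did not overlap the 3 vehicle arrays, 17 of them lower and 3 higher, against 26.2% of all accessions (11.8% lower, 14.3% higher). Of the 27 members not called, 16 did not overlap (59.3%), against 20.5% of all accessions not called. An unadjusted p under 0.05 was reached by 15 of 31 (48.4%), against 19% of all. HSF2 (NM_004506), a heat shock factor, lay at -1.07, -1.36 and -1.21 in vehicle and at -1.62, -1.53 and -1.56 in Dex. Its groups did not overlap, and the difference of -0.36 ± 0.10 missed the threshold (adjusted p = 0.071), though not without GR+MDFIC vehicle replicate 3 (adjusted p = 0.0427). HSF1 (NM_005526) differed by 0.04 (95% interval -0.10 to 0.17).

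Among the remaining HSP70 members, HSPA9, the mitochondrial HSP70, differed by -0.17 (adjusted p = 0.091; -0.22 and 0.0352 without GR Dex replicate 3) and HSPA4, an HSP110 relative, by -0.12 (adjusted p = 0.262). HSPA6, a strictly heat-inducible HSP70 in human cells, differed by -0.18 (adjusted p = 0.275), and by -0.001 within slide 1. HSPA2, known from testis, and HSPA14, which sits at the ribosome, differed by 0.08 and 0.02, with adjusted p of 0.766 and 0.944. None of these 5 passed. HSPA9 and HSPA4 had Dex arrays all below the vehicle arrays. HSPA2 had Dex arrays all above the vehicle arrays, but barely (lowest Dex value -0.262, highest vehicle value -0.264).

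The remaining DNAJ members, which deliver clients to HSP70, were DNAJA1 (-0.22, adjusted p = 0.14), DNAJA2 (0.03, adjusted p = 0.839), DNAJB2 (-0.20, adjusted p = 0.111), DNAJB4 (-0.13, adjusted p = 0.552) and DNAJC7 (-0.02, adjusted p = 0.945). DNAJB1 was thus the only one of 6 called, whereas DNAJA1 and DNAJB2 also had groups that did not overlap. DNAJA1 was called lower with normexp and quantile scaling (adjusted p = 0.031) and with the mean of its probes (adjusted p = 0.0486).

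The HSP90 members were not called. HSP90AA1, the inducible cytosolic HSP90, was read by probes for 2 accessions, with differences of -0.02 (NM_005348, 95% interval -0.17 to 0.14) and -0.18 (NM_001017963, adjusted p = 0.116). HSP90AB1, the constitutive form, differed by -0.12 (95% interval -0.27 to 0.02) and TRAP1, the mitochondrial HSP90, by 0.13 (adjusted p = 0.55). The intervals of the cytosolic members do not reach the difference measured for HSPA1A.

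HSPD1 and HSPE1, which form the mitochondrial HSP60 and HSP10 folding chamber, differed by -0.21 (adjusted p = 0.0617) and -0.13 (adjusted p = 0.36). Among the small HSPs, which bind unfolding proteins without ATP, HSPB1 differed by -0.17 (adjusted p = 0.0617), HSPB8 by -0.05 (adjusted p = 0.779) and CRYAB by 0.09 (adjusted p = 0.494). The 3 HSPB1 probes ranged from -0.17 to -0.01. HSPB1 and both chamber members had Dex arrays all below the vehicle arrays.

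Co-chaperones differed in both directions. BAG3, an HSP70 partner in selective autophagy and a known HSF1 target, lay at 3.42, 3.18 and 3.32 in vehicle and at 3.05, 3.09 and 3.15 in Dex. The Dex arrays were all lower, but GR vehicle replicate 2 lay close to them, and the difference of -0.21 ± 0.06 was not called (adjusted p = 0.0885); without that array it was -0.28 (adjusted p = 0.0288). CDC37, which brings kinases to HSP90, and STUB1, a ubiquitin ligase that binds HSP70 and HSP90, differed by 0.12 (adjusted p = 0.319) and 0.11 (adjusted p = 0.121). AHSA1, an activator of the HSP90 ATPase, and ST13, an HSP70-interacting protein, differed by -0.06 and 0.06. HMOX1, the inducible heme oxygenase, differed by -0.21 (adjusted p = 0.0712).

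In GR+MDFIC cells Dex lowered the same 4 chaperones and called 5 further members. Of 31 members, 9 (29%) were called, 8 lower and 1 higher, against 13.5% of all tested accessions called, 6.94% lower and 6.6% higher. Without GR+MDFIC vehicle replicate 3, 9 members (29%) were called, all lower, against 26.6% of all accessions called and 12.1% called lower. Of these, 8 were shared with the fit of all arrays, as STUB1 lost its call and DNAJA2 gained one. The values that follow are from all arrays. HSPA1A was 2.11-fold and DNAJB1 2.53-fold lower, HSPH1 and HSPA8 fell by less, and HSPA9, BAG3, HMOX1 and DNAJB2 joined them. STUB1 rose. The comparison uses none of the arrays of the GR comparison but shares its estimate of the spread.

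HSPA1A lay at 5.82, 5.68 and 5.64 on the GR+MDFIC vehicle arrays and at 4.76, 4.59 and 4.55 on the GR+MDFIC Dex arrays. The Dex arrays were again all lower, with a difference of -1.08 ± 0.08 (95% interval -1.26 to -0.90; adjusted p = 2.88e-05), and all 3 probes were called lower (-1.34 to -1.08).

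DNAJB1 lay at 4.23, 4.22 and 4.15 in vehicle and at 2.94, 2.84 and 2.80 in Dex. Its vehicle arrays were the highest and its Dex arrays held the lowest values of this probe in the study, and the difference was -1.34 ± 0.06 (95% interval -1.46 to -1.21; adjusted p = 8.32e-07).

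HSPH1 lay at 5.14, 4.92 and 4.98 in vehicle and at 4.53, 4.64 and 4.58 in Dex, with a difference of -0.43 ± 0.06 (adjusted p = 0.00213). HSPA8 lay at 7.77, 7.62 and 7.61 in vehicle and at 7.33, 7.39 and 7.31 in Dex, with a difference of -0.33 ± 0.05 (adjusted p = 0.00426), and all 3 of its probes were called lower. HSPA8 was at -0.21 with quantile scaling and -0.17 with normexp and quantile scaling, and lost its call when only the compared groups were fitted (adjusted p = 0.0548). Neither member's groups overlapped.

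The 5 members called in these cells and not in GR cells changed by 1.09-fold to 1.24-fold. HSPA9 lay at 3.28, 3.37 and 3.25 in vehicle and at 3.01, 3.05 and 3.03 in Dex, a difference of -0.27 ± 0.05 (adjusted p = 0.00874). BAG3 lay at 3.50, 3.41 and 3.42 in vehicle and at 3.11, 3.17 and 3.11 in Dex, a difference of -0.32 ± 0.06 (adjusted p = 0.0113). In both members the Dex arrays sat close together and below every vehicle array. The other BAG3 probe, tested on its own, differed by -0.23 (adjusted p = 0.052) and was not called. HSPA9 lost its call with normexp and quantile scaling (-0.16, adjusted p = 0.0576) and with only the compared groups fitted (adjusted p = 0.051).

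HMOX1 lay at 3.84, 3.88 and 3.78 in vehicle and at 3.53, 3.62 and 3.54 in Dex, a difference of -0.27 ± 0.06 (adjusted p = 0.0174). DNAJB2, a DNAJ protein with ubiquitin-binding motifs, lay at 5.19, 5.27 and 5.09 in vehicle and at 4.91, 4.97 and 4.89 in Dex, a difference of -0.26 ± 0.06 (adjusted p = 0.0266). Both had vehicle and Dex arrays that did not overlap. HMOX1 lost its call without GR+MDFIC vehicle replicate 1 or 2 or Dex replicate 1 or 3 (adjusted p of 0.0545 to 0.0651), and DNAJB2 without any of these or Dex replicate 2 (0.0518 to 0.0927). Both also lost it with only the compared groups fitted (adjusted p = 0.0558 and 0.0829).

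STUB1 lay at 3.47, 3.47 and 3.45 in vehicle and at 3.60, 3.58 and 3.60 in Dex. The replicates lay close together and the groups apart by little, 0.13 ± 0.03 (adjusted p = 0.0408). Its call was lost without any 1 of 10 of the 12 arrays, all but GR vehicle replicate 1 and GR Dex replicate 3 (adjusted p of 0.0521 to 0.111). Median scaling (0.08, adjusted p = 0.288), normexp with quantile scaling (adjusted p = 0.059) and no filter (adjusted p = 0.0918) also lost it. So did slide as a random block (adjusted p = 0.0565), replicate number as a block (adjusted p = 0.0615) and fitting only the compared groups (adjusted p = 0.146).

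**Figure D2:**
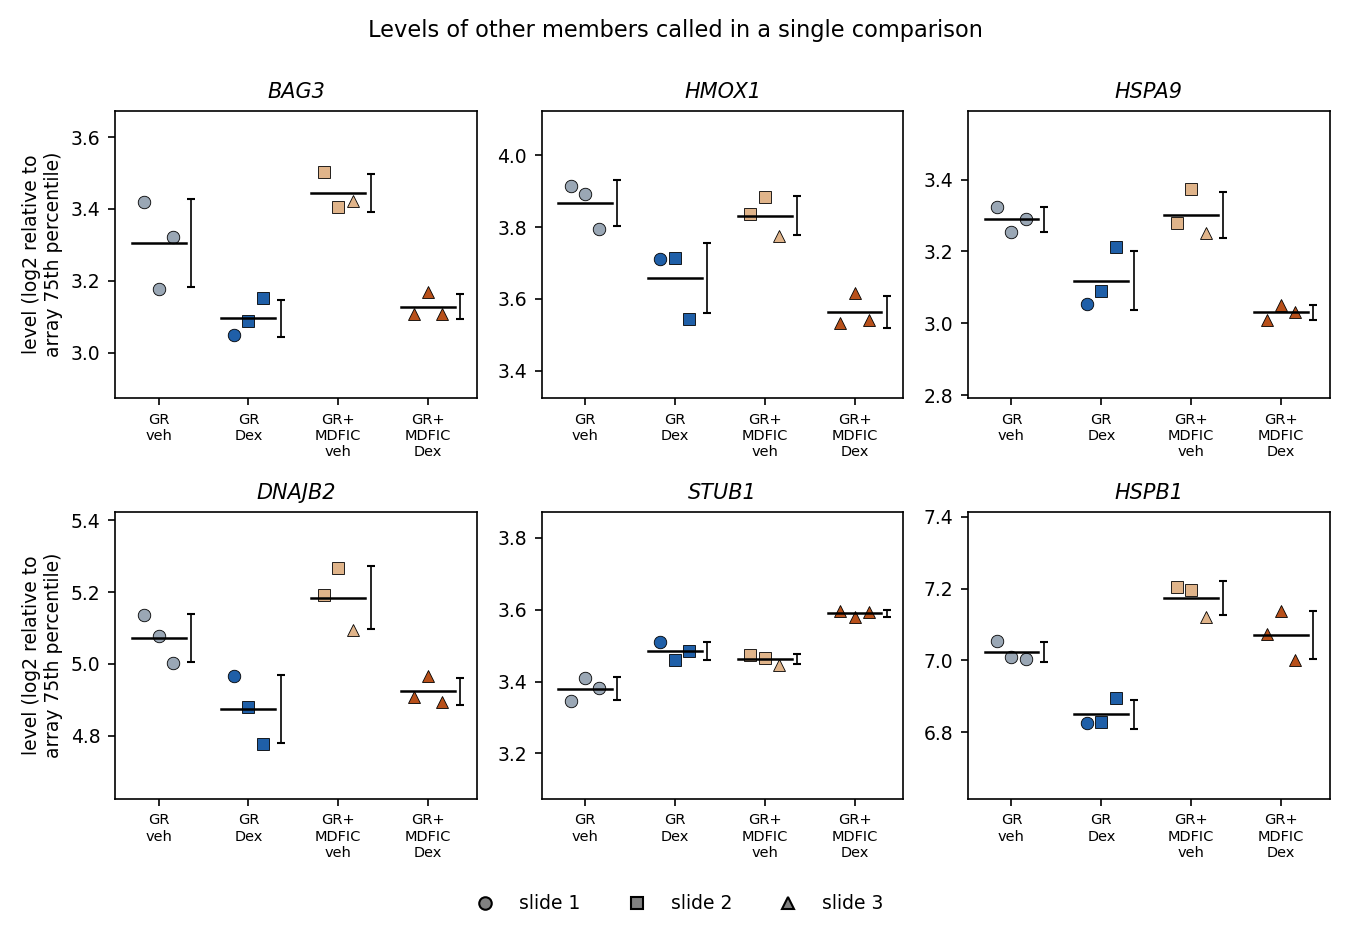
Level of 6 members, each called in 1 comparison, on each array (y axis, log2 level minus the array's 75th percentile) by group, with slide as the marker shape, the group mean as a line and ± 1 SD (n = 3) beside it. HSPA9, BAG3, HMOX1 and DNAJB2 lie lower and STUB1 higher in Dex than in vehicle in GR+MDFIC cells, and HSPB1 lies higher in GR+MDFIC Dex than in GR Dex arrays.

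The slide block, which here gives the difference within slide 3 (3 Dex arrays against 1 vehicle array), left HSPA1A (-1.01, adjusted p = 0.00323) and DNAJB1 (-1.29, adjusted p = 0.000188) called, in a fit that called 3.41% of all accessions, 1.09% lower. HSPH1 (-0.40, adjusted p = 0.0859), BAG3 (-0.29, adjusted p = 0.191), HSPA8 (-0.26, adjusted p = 0.151), HSPA9 (-0.22, adjusted p = 0.174), HMOX1 (-0.21, adjusted p = 0.292), DNAJB2 (-0.17, adjusted p = 0.357) and STUB1 (0.14, adjusted p = 0.248) were not called there but kept their direction. The vehicle array of slide 3 is GR+MDFIC vehicle replicate 3, so these within-slide values all rest on it. The block leaves 6 residual degrees of freedom in place of 8. All 4 members called in GR cells and all 9 called in GR+MDFIC cells had the same sign within a slide as over all arrays. That sign was fixed beforehand, because their Dex and vehicle arrays did not overlap, so it is no check on slide.

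**Figure D3:**
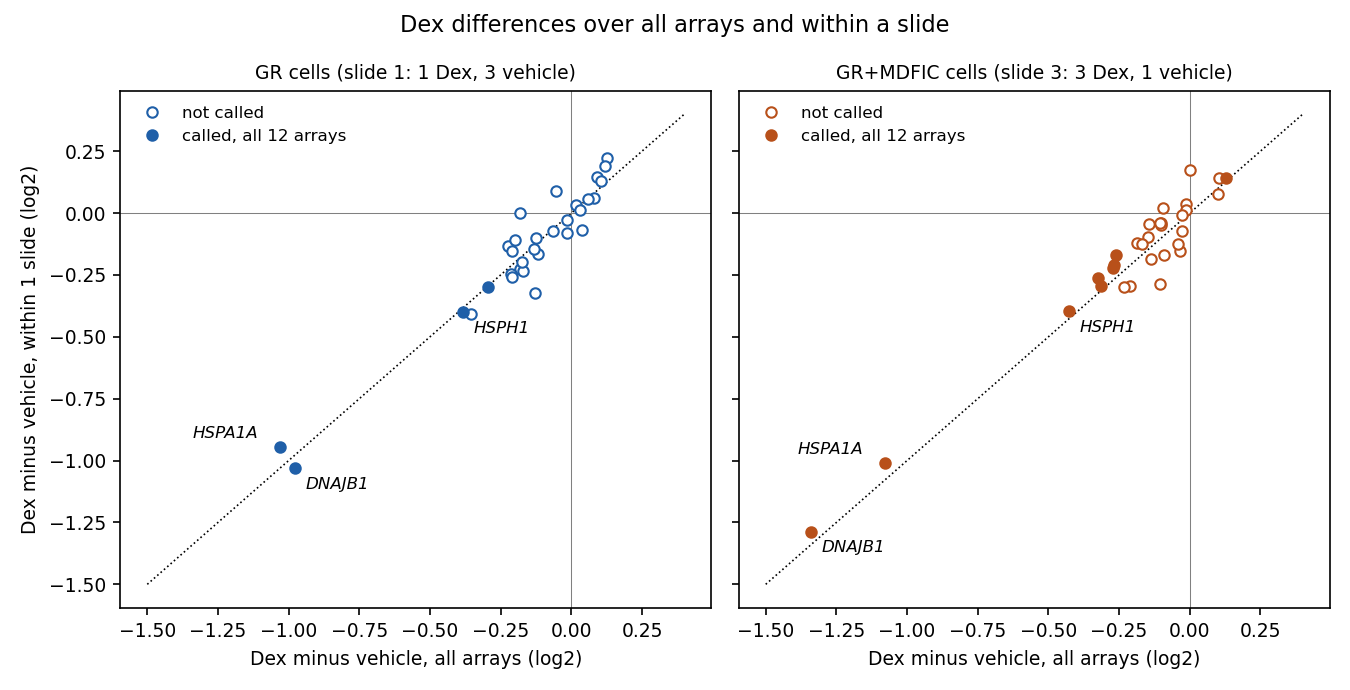
Dex minus vehicle over all arrays of a cell type (x axis, log2) against the difference within 1 slide (y axis, log2) for the 31 members, in GR cells (left) and GR+MDFIC cells (right), with filled points for called members and the dotted line for equal values. HSPA1A and DNAJB1 lie near -1 or below on both axes. No called member changes sign within a slide, which was fixed beforehand by groups that did not overlap.

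Over all 31 members in GR+MDFIC cells, called ones included, the median was -0.11 against -0.01 over all accessions, 27 of 31 (87.1%) were below 0 against 51.5% of all, and the groups did not overlap in 15 (48.4%; 13 lower, 2 higher) against 32.2% of all (16.2% lower, 15.9% higher). All 9 called members were among these 15. An unadjusted p under 0.05 was reached by 14 of 31 (45.2%), against 32% of all. Of the 22 members not called, 19 were below 0 (86.4%) against 51.5% of all accessions not called, with a median of -0.10, and 6 did not overlap (27.3%) against 21.8%. Nearest to a call was DNAJA2 (-0.17, adjusted p = 0.0543), which was called without GR+MDFIC vehicle replicate 3 (adjusted p = 0.0372) or Dex replicate 3 (0.0479). DNAJA1 differed by -0.21 (adjusted p = 0.0992; 0.0412 without GR+MDFIC Dex replicate 2), and of its 2 probes tested on their own 1 was called lower. It was also called lower with normexp and quantile scaling (adjusted p = 0.00895) and with the mean of its probes (adjusted p = 0.0197). DNAJB4 (-0.23, adjusted p = 0.133), HSPD1 (-0.15, adjusted p = 0.116) and HSPE1 (-0.14, adjusted p = 0.187) were not called, and the 2 HSPD1 probes lay at -0.15 and 0.04.

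The HSP90 members again were not called, at -0.14 and -0.09 for the 2 HSP90AA1 accessions, -0.03 for HSP90AB1 (95% interval -0.18 to 0.11) and 0.00 for TRAP1. HSF1 differed by -0.03 (95% interval -0.16 to 0.11) and HSF2 by -0.11 (adjusted p = 0.509), although the other of the 2 HSF2 probes, tested on its own, was called lower at -0.25. HSPB1 differed by -0.10 (adjusted p = 0.171), with its 3 probes between -0.22 and -0.10 and 1 of them called lower. The plot of Dex differences shows the 31 members side by side in both cell types.

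**Figure D4:**
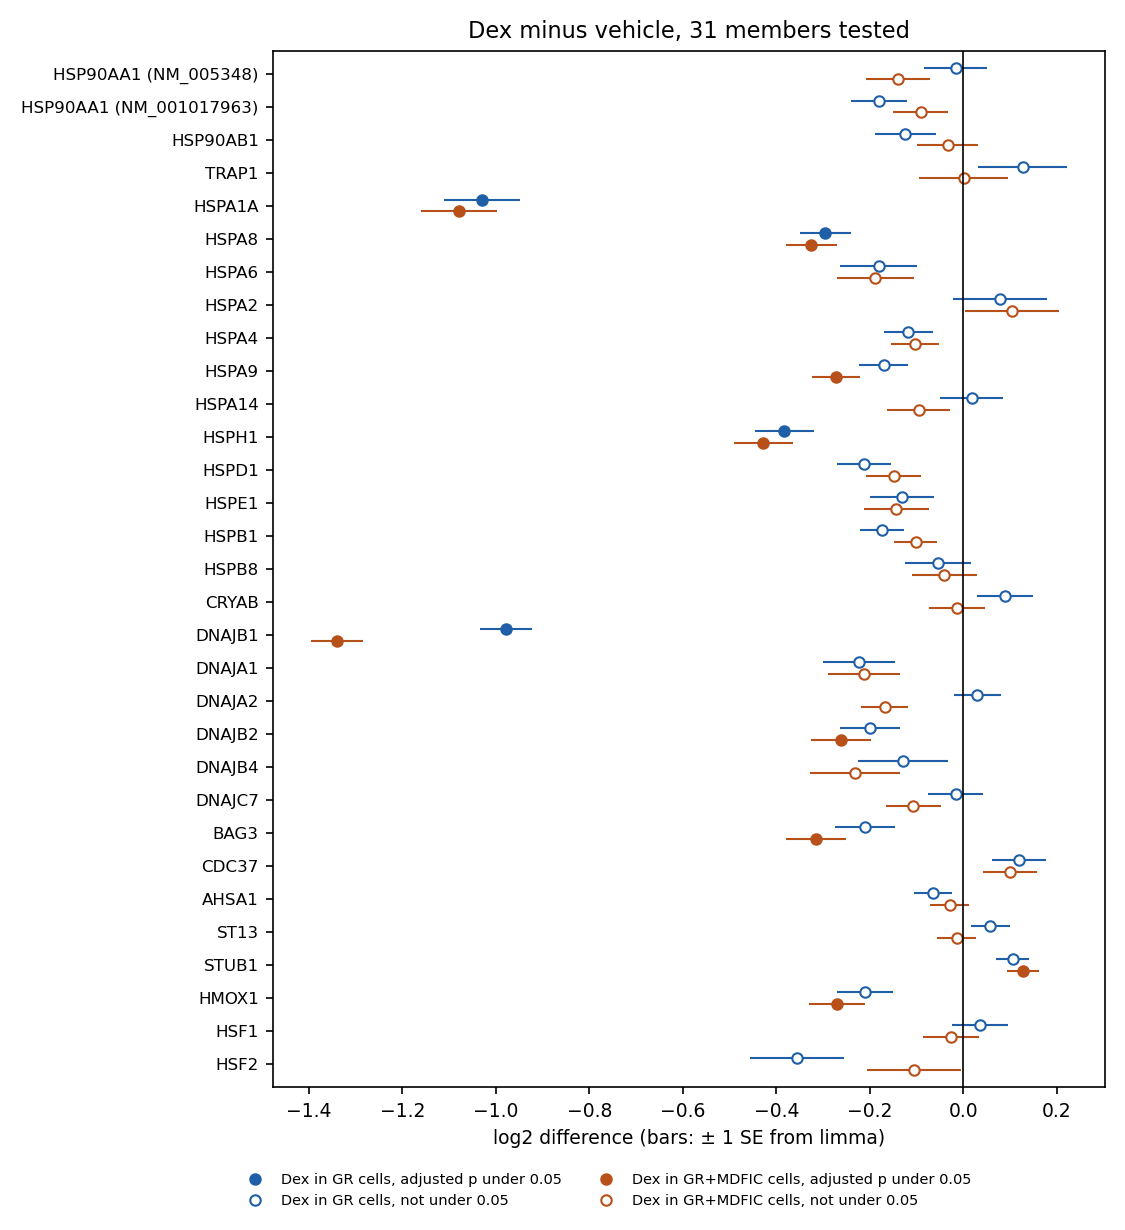
Dex minus vehicle (x axis, log2 difference, bars ± 1 SE from limma) for the 31 tested members in GR cells (blue) and GR+MDFIC cells (orange), with filled points for an adjusted p under 0.05. HSPA1A and DNAJB1 stand apart near -1 or below in both cell types, and every other member lies between -0.43 and 0.13.

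All 4 members called lower in GR cells were among the 8 called lower in GR+MDFIC cells, and 22 members were below 0 in both. Over all accessions, 490 were called lower in both, which was 74.5% of the 658 called lower in GR cells and 29.7% of the 1649 in GR+MDFIC cells. Whether a member's Dex difference itself differed between the cell types was tested as the interaction. No member was called by limma, against 0.0589% of all accessions, and 2 of 31, DNAJB1 and DNAJA2, passed an unadjusted p under 0.05 (6.45%, against 9.85% of all). DNAJB1 fell 0.36 log2 units further in GR+MDFIC than in GR cells in these arrays (-0.36 ± 0.08, 95% interval -0.54 to -0.18), and this was not called (adjusted p = 0.304). It was called once GR+MDFIC vehicle replicate 3, from slide 3, was left out (-0.39, adjusted p = 0.0277), a fit that called 1797 accessions in all in place of 14. With the slide block it was -0.26. DNAJA2 differed by -0.20 (adjusted p = 0.497).

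For HSPA1A the 2 Dex differences were -0.05 apart (95% interval -0.31 to 0.21), for HSPA8 -0.03 (-0.20 to 0.14) and for HSPH1 -0.04 (-0.25 to 0.16). These intervals hold 0 and limit how far apart the 2 responses can be on these probes, without showing that they are equal. The fit behind them has no slide term, and the 2 Dex comparisons lie partly on different slides, so the limits do not cover a slide effect. Tested on their own, the other HSPA1A probes had interactions of -0.13 and -0.19 and the other HSPA8 probes -0.17 and -0.03, none called. The members called only in GR+MDFIC cells had interactions of -0.10 (HSPA9), -0.11 (BAG3), -0.06 (HMOX1), -0.06 (DNAJB2) and 0.02 (STUB1), none called, so their Dex response was not shown to differ between the cell types.

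MDFIC itself changed no member past the threshold in vehicle. limma called 0 of 31, against 0.884% of all accessions, and 10 of 31 passed an unadjusted p under 0.05 (32.3%, against 17.6% of all). The groups did not overlap in 12 members (38.7%), all 12 higher in GR+MDFIC cells, against 22.1% of all accessions and 12.1% higher. The median over members was 0.05 against -0.001 over all. No slide holds both cell types under the same treatment, so no within-slide value can be given for an MDFIC effect.

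Those nearest to a call were DNAJB1, CRYAB and HSP90AA1. DNAJB1, with its vehicle values given above, was higher by 0.27 ± 0.06 (adjusted p = 0.0646) in GR+MDFIC vehicle. CRYAB (NM_001885), a small HSP of lens and muscle, lay at 4.84, 4.74 and 4.72 in GR vehicle and at 5.01, 5.15 and 5.01 in GR+MDFIC vehicle (0.29 ± 0.06, adjusted p = 0.0658). In both members every GR+MDFIC array was above every GR array, and both were called with quantile scaling (adjusted p = 0.0358 for each).

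HSP90AA1 (NM_005348) lay at 5.21, 5.38 and 5.35 in GR vehicle and at 5.64, 5.59 and 5.68 in GR+MDFIC vehicle (0.32 ± 0.07, adjusted p = 0.0696). The gene's probes disagreed, since the other probe of this accession differed by -0.02 and the leading probe of NM_001017963 by -0.12. HSPB1 differed by 0.15 (adjusted p = 0.166) on its brightest probe and by 0.32 and 0.33 on its other 2, 1 of which was called when every probe was tested on its own (adjusted p = 0.0274). The 6 DNAJ members lay between 0.01 and 0.29 and the 3 small HSPs between 0.10 and 0.29. With slide as a block the differences were 0.22 for DNAJB1, 0.40 for CRYAB and 0.19 for HSP90AA1, and none was called (0.299% of all accessions were).

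With Dex present, HSPB1 (NM_001540), a small HSP that also binds actin, was the only member called between the cell types. It lay at 6.83, 6.83 and 6.90 in GR Dex and at 7.07, 7.14 and 7.0 in GR+MDFIC Dex. The groups did not overlap, and the difference was 0.22 ± 0.05 (adjusted p = 0.0359), 1 of 31 members (3.23%) against 5.54% of all accessions and 2.65% higher. Its other 2 probes differed by 0.12 and 0.14 and were not called. The call was lost without any 1 of 9 of the 12 arrays, all but the 3 GR+MDFIC vehicle arrays (adjusted p of 0.053 to 0.101), and with slide as a block (0.29, adjusted p = 0.60), where 0.202% of accessions were called.

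In Dex, 4 members passed an unadjusted p under 0.05 (12.9%, against 24.7% of all), HSPB1 among them. Of the other 3, CRYAB differed by 0.18 (adjusted p = 0.0951), HSP90AA1 (NM_005348) by 0.19 (adjusted p = 0.116) and STUB1 by 0.11 (adjusted p = 0.104). The groups did not overlap in 9 members (29%; 5 higher, 4 lower), against 32.2% of all accessions (16.1% higher, 16.2% lower). The 4 members called lower in both Dex comparisons were not called between the cell types in Dex. HSPA1A differed by 0.08 (adjusted p = 0.61), DNAJB1 by -0.09 (adjusted p = 0.349), HSPH1 by 0.11 (adjusted p = 0.315) and HSPA8 by -0.11 (adjusted p = 0.229). The HSPA8 arrays of GR+MDFIC Dex were all below those of GR Dex. Its other 2 probes, tested on their own, differed by -0.21 and -0.23 and were not called (adjusted p = 0.11 and 0.0635). All GR+MDFIC Dex arrays were on slide 3 and none of the GR Dex arrays, so this comparison also crosses the 2 scanners and software releases. The plot of MDFIC differences shows both treatments.

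**Figure D5:**
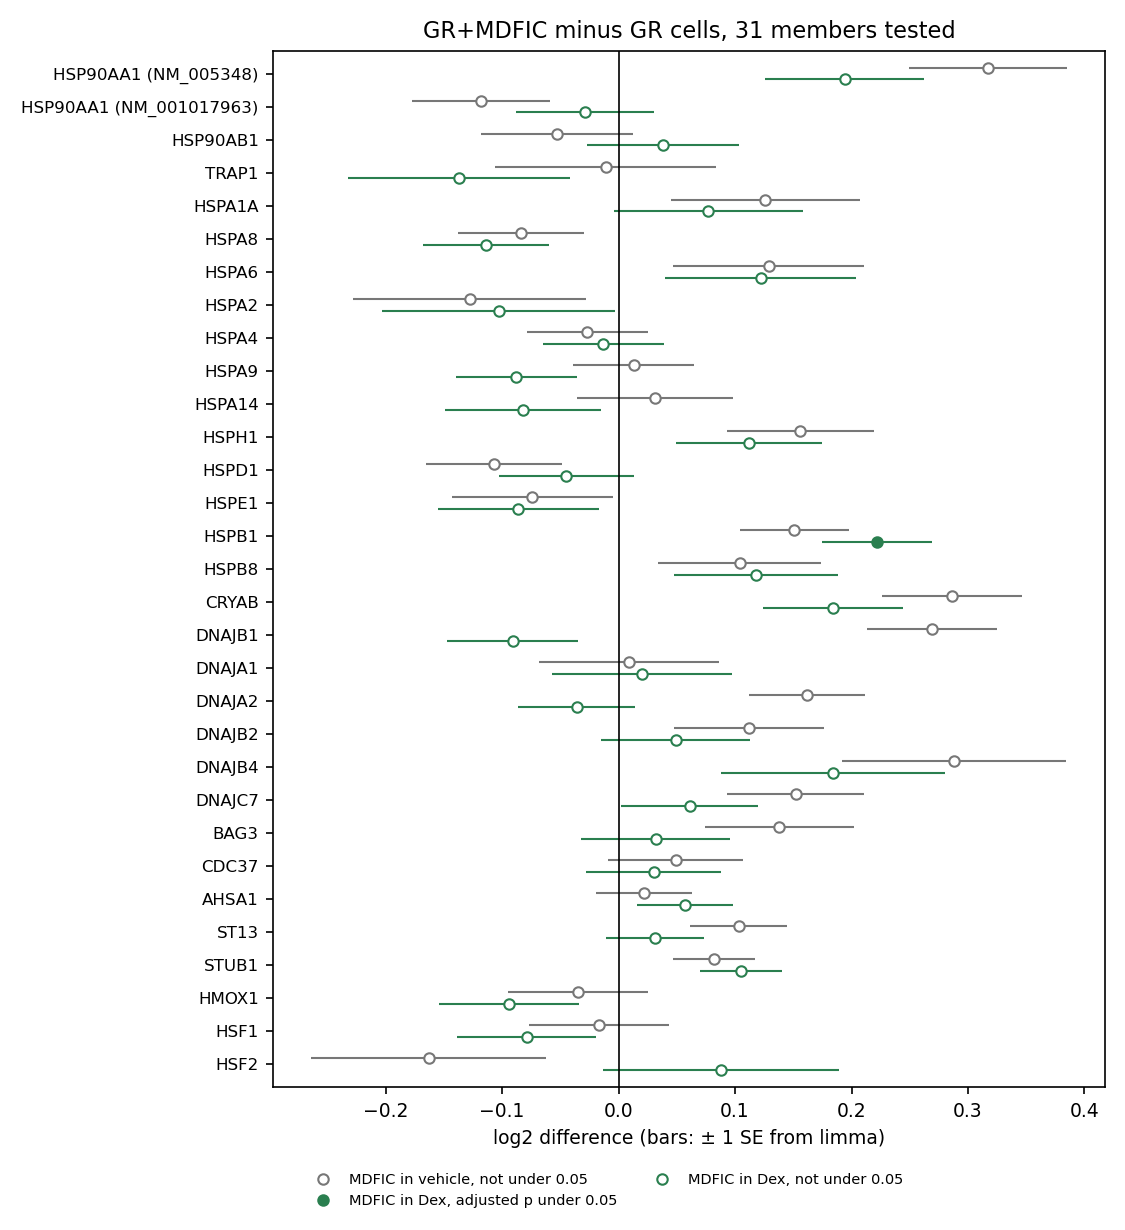
GR+MDFIC minus GR cells (x axis, log2 difference, bars ± 1 SE from limma) for the 31 tested members in vehicle (grey) and Dex (green), with filled points for an adjusted p under 0.05. All members lie between -0.16 and 0.32, and HSPB1 in Dex is the only filled point.

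Other chaperones were read from 4 lists of further families, whose counts with Dex stand beside the 7.17% (GR cells) and 13.5% (GR+MDFIC cells) called over all accessions. Of 15 tested subunits of the TRiC chaperonin and prefoldin, which fold actin and tubulin, limma called none with Dex in either cell type. An unadjusted p under 0.05 was reached by 3 (20%) in each, against 19% of all accessions in GR and 32% in GR+MDFIC cells. Their medians were -0.06 in GR and -0.03 in GR+MDFIC cells. Of 22 further HSP90 and HSP70 co-chaperones, 3 were called in each Dex comparison (13.6%). FKBP5, a GR-induced HSP90 co-chaperone, rose 1.81-fold with GR alone (adjusted p = 8.55e-06) and 2-fold with GR+MDFIC (adjusted p = 2.3e-06). BAG2, an HSP70 co-chaperone, fell in both (-0.46 ± 0.06, adjusted p = 0.00114, and -0.45 ± 0.06, adjusted p = 0.00108), and so did GRPEL2, a mitochondrial HSP70 exchange factor (-0.36, adjusted p = 0.0154, and -0.44, adjusted p = 0.00351). With the slide block BAG2 stayed called in GR cells (-0.43, adjusted p = 0.0401) and not in GR+MDFIC cells (-0.40, adjusted p = 0.0564), while GRPEL2 was called in neither.

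Of 11 tested chaperones of the endoplasmic reticulum, 3 were called in each Dex comparison (27.3%), all 3 lower in GR cells, and 2 lower and 1 higher in GR+MDFIC cells. DNAJB9, an HSP40 that acts on the endoplasmic reticulum HSP70, fell in GR cells by 0.23 on the log2 scale (adjusted p = 0.0447). It was lower with Dex in GR+MDFIC cells too, with means of -0.28 in vehicle and -0.60 in Dex. HSPA5, that HSP70, fell by 0.33 in GR+MDFIC cells (adjusted p = 0.00606) and differed by -0.10 in GR cells (adjusted p = 0.448). HYOU1, an HSP110 relative of the same compartment, was higher by 0.69 ± 0.19 in GR+MDFIC cells (adjusted p = 0.0436), but by 0.20 within slide 3 (adjusted p = 0.683). None of the endoplasmic reticulum chaperones was called with the slide block.

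Of 14 tested accessions of other DNAJ and small HSP genes, limma called none with Dex when GR was given alone. There 5 (35.7%) passed an unadjusted p under 0.05, against 19% of all accessions. With GR+MDFIC limma called 3 (21.4%), 2 lower and 1 higher. The one higher was CRYAA, a lens small HSP (0.64 ± 0.15, adjusted p = 0.023, and 0.30 within slide 3, adjusted p = 0.391). Between the cell types, HSPB2, a muscle small HSP, was lower with MDFIC in vehicle (-0.45, adjusted p = 0.0342). In Dex, CCT7, a TRiC subunit, was lower (-0.27, adjusted p = 0.0457) and DNAJA4 higher (0.31, adjusted p = 0.0334) with MDFIC. None of these 3 was called with slide as a block.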

How the data were processed

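The authors deposited linear intensities. Agilent Feature Extraction (version 12 per the submitters' processing notes) made, per the file headers, a background-subtracted, spatially detrended processed signal for each spot, with no scaling between arrays. The deposited flags, other values of 0 or 1, mark spots well above background, saturated or outlying, per the file headers. The deposited series table holds identical signals. Probe annotation beyond accessions is not given in the sources used here.

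Signals were put on the log2 scale minus each array's 75th percentile of non-control spots. Outlier spots were left out, which removed 34 tested values, none of them a member's. The filter asked for a signal well above background on every one of the 3 arrays in 1 group or more, and for 2 or more unflagged arrays per group, and the probe with the highest mean stood for an accession. A group-means model of the 12 arrays was fitted in limma 3.58.1 (R 4.3.3; data.table, version 1.17.8) with 8 residual degrees of freedom. Tests were two-sided, with Benjamini-Hochberg adjustment over 23757 accessions and calls at an adjusted p under 0.05. The fit was tested on simulated data. Figures used matplotlib 3.10.9 in Python 3.11.15.

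The number of arrays limits the precision. Replicates correlated at 0.9796 to 0.9954 and none were identical. The lowest values, 0.9796 and 0.9809, were those of GR+MDFIC vehicle replicate 3 with the other replicates of its group, which were on another slide. No source says whether they were separate cultures, so p-values measure the spread between these samples. Replicate numbers did not pair the samples (correlation of deviations from -0.108 to 0.06). The members, gene lists and rule for named genes were chosen with earlier results of these data known: every member is named, and of other lists at most the 3 largest called rises and falls per comparison. Alternatives covered scaling, normexp background correction (offset 50) with quantile scaling, filters, probe choice, slide or replicate number as a block, the variance model, thresholds, and leaving out each array. normexp used spot medians in place of means.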

Additional observations from a re-analysis of the deposited data

How the results depend on the processing

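No difference of a member that was called changed direction under any of the alternatives. For the Dex slide block and for leaving out arrays this was fixed beforehand, as the groups of each called member did not overlap. With slide as a fixed block, 2 members were called with Dex in GR cells (4 without it), 2 with Dex in GR+MDFIC cells (9 without it), 0 with MDFIC in vehicle and 0 with MDFIC in Dex (1 without it); over all accessions 845, 809, 71 and 48 were called in place of 1704, 3217, 210 and 1317. With an intensity trend and robust variance, 10 were called with Dex in GR cells (1952 accessions in all) and 3 with MDFIC in vehicle (328 in all). Fitting only the compared groups left 4 with Dex in GR+MDFIC cells (1243 accessions in all) and 0 with MDFIC in Dex (2259 in all). An adjusted p under 0.01 left 5 with Dex in GR+MDFIC cells (1357 accessions in all) and 0 with MDFIC in Dex (59 in all). With MDFIC in vehicle, quantile scaling called 2 (221 in all), normexp with quantile scaling 3 (203 in all), and testing every probe 1 (234 in all). With MDFIC in Dex, quantile scaling called 3 (1529 accessions in all). Median scaling (1416 in all), no filter (862), the mean of an accession's probes (1347) and slide as a random block (114) called 0. Leaving out each array in turn gave 4 to 5, 6 to 9, 0 to 0, 0 to 1 and, for the interaction, 0 to 1 members called. HSPA1A, DNAJB1, HSPH1 and HSPA8 stayed called in both Dex comparisons each time, and HSPA9 and BAG3 did so in GR+MDFIC cells. Over all accessions these fits called 1073 to 1780, 1815 to 6311, 82 to 565, 90 to 3106 and 2 to 1797, with the highest of each in the fit without GR+MDFIC vehicle replicate 3. With the replicate number as a replicate block, 5, 8, 0, 1 and 0 members were called. Over all accessions that fit called 1610, 3341, 115, 1124 and 5, and the replicate numbers do not pair the samples. The causes were not tested. Not computable were the compared groups alone for the interaction, the fit without slide 3 for comparisons that need its arrays, and within-slide values for MDFIC. The median of all accessions moved by under 0.06 between scalings.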
